A study of Mus musculus with 26 samples.

Results

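The genes described here are 10 markers of intestinal stem cells and crypt base progenitors (Lgr5, Olfm4, Ascl2, Smoc2, Prom1, Sox9, Myb, Lrig1, Tnfrsf19 and Slc12a2), chosen by name and role from the 55487 genes of the count table. The 10 symbols each matched 1 gene, and the 10 genes all passed the filter on low counts at both time points. RNA was sequenced from pieces of the proximal small intestine (SI) of knockout mice (a floxed gene with Villin-creERT2, labelled tg) and of control mice (the same floxed alleles without Cre, labelled wt), 8 to 12 weeks old. Both genotypes carried the floxed alleles and received tamoxifen in 5 daily injections, and the mice were killed 3 or 7 days after the last injection. The Villin promoter drives the Cre in intestinal epithelial cells, so that the deletion was aimed at the epithelium, while each piece also held lamina propria and muscle. There were 7 mice per genotype on day 3 and 6 mice per genotype on day 7, with 1 library from each mouse. The question was which stem and progenitor transcripts were already lower on day 3 and which only on day 7.

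The stem cells of the SI sit between Paneth cells at the crypt base and divide continuously, and their daughters amplify in the crypt, differentiate and leave through the villus. Wnt signals maintain them. LGR5 is a receptor for R-spondins, which keep Wnt receptors at the cell surface, and ASCL2 is a transcription factor that works with Wnt signalling in the stem cell. OLFM4 is a secreted glycoprotein of these cells, and MYB and SOX9 are transcription factors of the proliferating crypt. Several of the other markers are also made outside the crypt base, for example in stroma, stomach or ducts.

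The library totals lay between 3720168 and 6338016 counts, and levels are given as CPM, which is the count of a gene scaled by the library total. As each value is an average over the tissue piece, fewer cells of a type and less RNA per cell cannot be told apart in any of the results. Epithelial transcripts were present in each group, with the sum of 12 epithelial markers between 1848 and 6303 CPM over the libraries. Tissue of neighbouring organs was present in part of the libraries. Of the 26 libraries, 4 had over 100 CPM in the sum of 8 stomach epithelium genes, namely replicates 5 and 7 of the control and replicate 1 of the knockout on day 3 and replicate 2 of the control on day 7. There were 10 libraries, in part the same, with over 1000 CPM in the sum of 10 pancreatic acinar genes. Results that rest on them are given with fits that left out some or all of them.

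The promoters of the genes with the largest falls (Olfm4 and Myb) and of the gene that rose (Tnfrsf19) are shown for reference, as the 250 bases before the transcription start in RefSeq (GRCm38.p6), 5′ to 3′ on the strand of the gene. The RefSeq table of promoters held 6 of the 10 genes, with 2 starts each for Prom1 and Tnfrsf19. Capitals mark the letters CTTTGA (the core that TCF/LEF factors of the Wnt pathway bind, TCAAAG on the other strand) and CACGTG (an E-box), searched on both strands over windows of 250 bases before to 50 after the start. The 2 motifs share no overlapping match here.
Olfm4, chr14:80000052-80000301 (+): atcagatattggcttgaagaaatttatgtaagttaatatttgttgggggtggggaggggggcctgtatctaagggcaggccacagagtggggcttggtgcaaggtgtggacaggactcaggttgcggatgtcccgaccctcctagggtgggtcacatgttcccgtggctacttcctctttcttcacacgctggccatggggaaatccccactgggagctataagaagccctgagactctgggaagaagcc
Myb, chr10:21160985-21161234 (-): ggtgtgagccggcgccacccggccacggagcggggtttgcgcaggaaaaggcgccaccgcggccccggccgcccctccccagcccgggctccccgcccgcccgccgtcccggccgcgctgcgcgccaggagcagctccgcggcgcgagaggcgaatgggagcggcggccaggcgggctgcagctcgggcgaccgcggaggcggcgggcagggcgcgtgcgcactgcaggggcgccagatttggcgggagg
Tnfrsf19, downstream start, chr14:61037988-61038237 (-): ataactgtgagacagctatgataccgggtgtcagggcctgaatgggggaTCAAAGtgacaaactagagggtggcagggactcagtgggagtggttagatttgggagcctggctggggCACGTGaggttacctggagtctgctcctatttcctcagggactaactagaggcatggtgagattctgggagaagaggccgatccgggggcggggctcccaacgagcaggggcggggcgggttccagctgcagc
Neither motif was found in the windows of Olfm4, Myb, Ascl2 and Lrig1, or in the upstream windows of Prom1 and Tnfrsf19. Of the 2 starts of Tnfrsf19, only the downstream one is printed. The downstream window of Tnfrsf19 held TCAAAG at −201 relative to the start, together with an E-box. In the downstream window of Prom1, CTTTGA lay 8 bases after the start. Over all 32851 promoters of the table, 16% held the TCF core and 7.15% the E-box, so the matches are a description of these letters and not of binding.

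**Figure D1:**
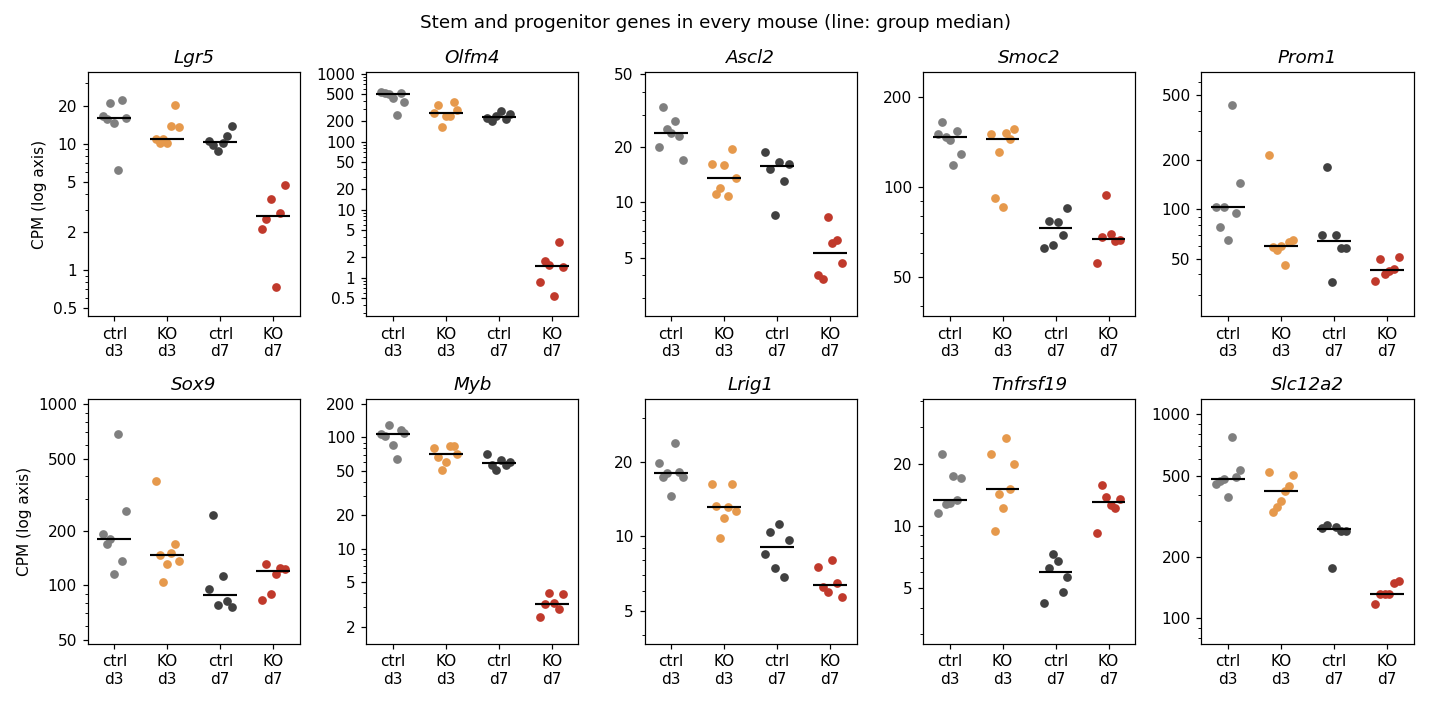
CPM (log axis) of the 10 genes in every mouse, with points for mice, black lines for group medians, grey for control and colour for knockout libraries of days 3 and 7 (d3, d7). The knockout mice of day 7 stand below all other groups for Olfm4, Myb, Lgr5, Ascl2 and Slc12a2, while Tnfrsf19 is higher than in the control mice of the same day.

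On day 3, none of the 10 genes passed the test between knockout and control mice, while 9 of 10 had a lower estimate in the knockout. Their median log2 fold change was −0.39, beside −0.03 over the 20760 genes tested. In edgeR's quasi-likelihood test with Benjamini-Hochberg adjustment over all genes, 0.323% of the genes tested were called lower and 1.11% higher on this day, so that 0 of 10 members lies near the background. The unadjusted p was under 0.05 for 4 of the 10 members, Ascl2, Olfm4, Myb and Lrig1, beside 13.6% of all genes tested. Ascl2 came nearest to the threshold. It ranged from 17.0 to 33.1 CPM (median 23.9) in the 7 control mice and from 10.8 to 19.5 CPM (median 13.5) in the 7 knockout mice, so that the groups overlapped at their edges. The log2 fold change was −0.67 (SE 0.16, adjusted p = 0.0508). The call of Ascl2 on day 3 depended on the settings. It was made with DESeq2 (adjusted p = 0.00734), library totals (0.0301), the filterByExpr filter (0.0410), all libraries in 1 fit (0.0238) and without the stomach-rich libraries (0.0439), and in 3 of 14 fits that left out 1 mouse, where the adjusted p reached 0.121. It was not made with DESeq2 size factors in edgeR (0.0518), no filter (0.0662), the replicate block (0.192), the epithelial list as library size (0.567), without the pancreas-rich libraries (0.281) or with both lists as covariates (0.122).

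Olfm4 had the next smallest p on day 3. Control mice ranged from 250.5 to 539 CPM (median 503) and knockout mice from 167 to 382 CPM (median 266). The lowest control library was replicate 5, which had 5456 CPM of stomach genes, and it lay inside the range of the knockout mice. The log2 fold change was −0.58 (SE 0.19, adjusted p = 0.168). Myb lay between 64.6 and 129 CPM (median 107) in control and between 51.5 and 83.7 CPM (median 70.9) in knockout mice, with a log2 fold change of −0.42 (SE 0.15, adjusted p = 0.194), and passed the test with all 26 libraries in 1 fit (adjusted p = 0.0462). Lrig1 differed by −0.36 on the log2 scale (SE 0.15, adjusted p = 0.278). For these 4 genes the 95% interval of the log2 fold change, without adjustment, lay below 0. That restates their unadjusted p under 0.05, by which they were named, and adds no further support. The interval reached from −1.02 to −0.33 for Ascl2.

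Lgr5 itself gave no such difference on day 3. It ranged from 6.18 to 22.2 CPM (median 15.9) in control and from 10.03 to 20.1 CPM (median 10.9) in knockout mice. The log2 fold change was −0.22 (SE 0.22, adjusted p = 0.733) with an interval from −0.68 to 0.25, so a fall of the size of that in Ascl2 lies at its edge. With 23 to 120 counts per library, Lgr5 was measured less precisely than Olfm4, which had 753.5 to 2779.5 counts. The genotypes did not separate on day 3 for any of the 10 genes. Over all genes, 0.491% had knockout values that all lay below the control values.

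On day 7, the differences were uneven among the genes, larger than on day 3 for some and of like size or smaller for others. Prom1 and Lrig1 were called on this day only, with log2 fold changes near those of day 3 (−0.79 beside −0.81 and −0.39 beside −0.36). In the knockout, 7 of 10 genes were lower (Olfm4, Myb, Lgr5, Ascl2, Slc12a2, Prom1 and Lrig1), Tnfrsf19 was higher, and Smoc2 and Sox9 did not pass the test. The background was high as well, with 18.8% of the 20259 genes tested lower and 19.7% higher, and the median log2 fold change was −0.85 for the members beside −0.02 for all genes. For 5 members (Olfm4, Myb, Lgr5, Ascl2 and Slc12a2) each knockout mouse lay below each control mouse, which held for 11.6% of all genes tested.

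**Figure D2:**
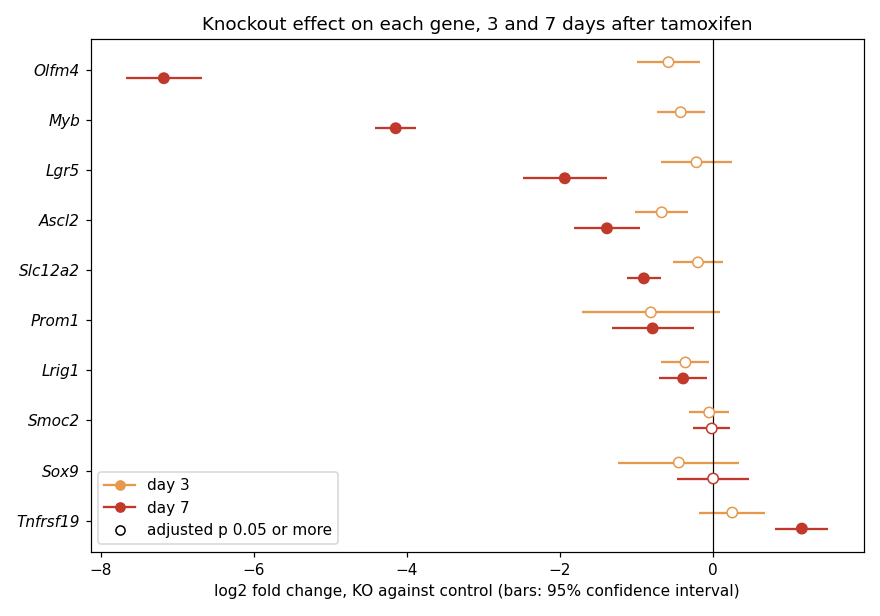
Log2 fold change of knockout against control mice with its 95% confidence interval for each gene, on day 3 (orange) and day 7 (red), with open circles where the adjusted p was 0.05 or more. On day 7 the estimates spread from −7.17 for Olfm4 to 1.16 for Tnfrsf19, while on day 3 they lie between −0.81 and 0.25 and are all open.

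Olfm4 showed the largest fall of the 10 genes. The 6 control mice had 199 to 284 CPM (median 231) and the 6 knockout mice 0.54 to 3.37 CPM (median 1.48). No knockout mouse came near the control range. The difference on the log2 scale was −7.17 (SE 0.24, adjusted p = 1.73e-13), a 144-fold lower level. The knockout libraries held 3 to 20.5 counts of Olfm4, and the lowest stands at the floor of 3 counts.

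The other secreted protein of the list is SMOC2, a matricellular protein of stem cells that fibroblasts make as well. Its transcripts lay between 62.4 and 84.7 CPM (median 72.8) in control mice and between 55.5 and 93.7 CPM (median 67.0) in knockout mice of day 7. The ranges overlapped almost wholly, and the log2 fold change was −0.02 (SE 0.11, adjusted p = 0.922, 95% interval −0.26 to 0.22). With the summed epithelial list in place of the library size, the value turned to 0.32 and passed the test (adjusted p = 0.0452). The summed list was itself lower in knockout (4089 to 4767 CPM) than in control mice of day 7 (5022 to 6303 CPM). This scaling therefore shifts the day 7 estimates of all genes upward, and the values below that use the list on this day carry the same shift.

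Among the receptors, Lgr5 fell. Control mice of day 7 had 8.72 to 13.7 CPM (median 10.3) and knockout mice 0.72 to 4.68 CPM (median 2.67). The genotypes did not overlap, and the log2 fold change was −1.94 (SE 0.26, adjusted p = 8.56e-06), or 3.83-fold. The knockout values rest on 4 to 26 counts per library. LRIG1, a transmembrane protein that restrains receptors of the EGF family in stem cells, showed a small change. Its transcripts lay between 6.84 and 11.3 CPM (median 9.04) in control and between 5.67 and 8.06 CPM (median 6.38) in knockout mice. The log2 fold change of −0.39 (SE 0.15, adjusted p = 0.0458) was called, but the call was lost in 7 of the 12 fits that left out 1 mouse and in several other settings, among them without the library rich in stomach genes (adjusted p = 0.0681) and with the epithelial list as library size, where the log2 fold change was −0.0451 (adjusted p = 0.876).

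Tnfrsf19, also known as Troy, codes for a receptor of the TNF receptor family and marks crypt base cells. It had 4.23 to 7.35 CPM (median 5.99) in control mice and 9.29 to 15.7 CPM (median 13.1) in knockout mice of day 7. All knockout mice were above all control mice, with a log2 fold change of 1.16 (SE 0.16, adjusted p = 1.57e-05), or 2.23-fold. On the same day, 4 of 5 endothelial markers were higher in the knockout (among them Kdr, with a log2 fold change of 1.24) and 4 of 10 fibroblast markers were higher and 2 lower, and their summed levels ranged from 178 to 254 CPM against 98.1 to 140 CPM for endothelium and from 994 to 1987 CPM against 994 to 1524 CPM for fibroblasts. No gene of either list was at 0 throughout a group. Their part in the change of Tnfrsf19 was not tested.

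Of the transcription factors, Myb fell most. MYB keeps crypt progenitors dividing. Its transcripts were at 51.2 to 70.4 CPM (median 58.6) in control and at 2.45 to 3.98 CPM (median 3.22) in knockout mice of day 7. The spread within each genotype was small beside the gap, with a log2 fold change of −4.15 (SE 0.13, adjusted p = 5.57e-14), or 17.7-fold. The knockout values of Myb rest on 14 to 22 counts per library. Myb is also transcribed in immature blood cells and some T cells, and 6 of 10 tested lymphocyte and plasma cell genes were lower and 2 higher on day 7, with summed levels of 216 to 454 CPM in knockout and 525 to 1270 CPM in control mice and no gene of the list at 0 throughout a group. Their part in the fall of Myb was not tested.

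Ascl2 was at 8.55 to 18.8 CPM (median 15.7) in control and at 3.80 to 8.34 CPM (median 5.33) in knockout mice of day 7. The groups came close to each other without overlap, and the estimate was −1.39 on the log2 scale (SE 0.20, adjusted p = 2.20e-05), or 2.62-fold. Sox9, which is active in stem, progenitor, Paneth and tuft cells, was at 76.0 to 244 CPM (median 88.6) in control and at 82.9 to 130 CPM (median 120) in knockout mice. The highest control mouse was replicate 2, the library with 5343 CPM of stomach genes. With it the difference was near 0 on the log2 scale (SE 0.22, adjusted p = 0.9997), and without it 0.32 (adjusted p = 0.0444), so that this library decides whether Sox9 counts as higher in the knockout.

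The last 2 genes code for membrane proteins. SLC12A2 is the sodium-potassium-chloride cotransporter of the basolateral side, which feeds chloride secretion in the crypt. Its transcripts were at 177 to 287 CPM (median 273) in control and at 118 to 153 CPM (median 131) in knockout mice of day 7. No mouse of the knockout reached the lowest control, and the log2 fold change was −0.90 (SE 0.11, adjusted p = 1.78e-06), or 1.87-fold. PROM1, or CD133, is a pentaspan membrane protein of protrusions in epithelial progenitors. It had 35.9 to 181 CPM (median 63.8) in control and 36.3 to 51.4 CPM (median 42.6) in knockout mice, and the ranges overlapped. The log2 fold change of −0.79 (SE 0.25, adjusted p = 0.0192) became −0.40 without the control library rich in stomach genes (adjusted p = 0.0396), and it was not called with all libraries in 1 fit (adjusted p = 0.161), with the epithelial list as library size (0.179) or without the pancreas-rich libraries (0.0625).

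**Figure D3:**
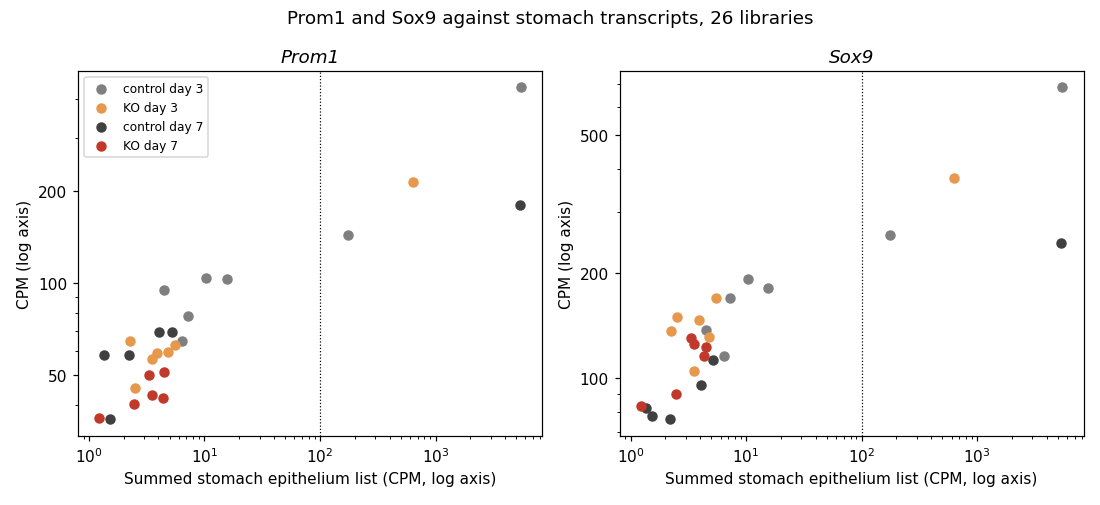
CPM of Prom1 and of Sox9 against the summed CPM of 8 stomach epithelium genes in the 26 libraries (log axes), coloured by group, with a dotted line at 100 CPM. The 4 libraries right of the line hold the highest Prom1 and Sox9 levels, up to 437 and 685 CPM in control replicate 5 of day 3.

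Prom1 and Sox9 varied together with stomach transcripts. After subtraction of the group means, the log2 levels of the 26 libraries correlated with the summed stomach list with Pearson's r of 0.93 for Prom1 and 0.92 for Sox9, and with 0.61 for Slc12a2, while r was −0.40 for Lgr5 and −0.35 for Olfm4. These values describe points that share library and depth. Prom1 was at 437 CPM in control replicate 5, 144 CPM in control replicate 7 and 215 CPM in knockout replicate 1 of day 3, and at 181 CPM in control replicate 2 of day 7. Its level in the other 22 libraries did not exceed 104 CPM. The log2 fold changes of Prom1 and Sox9 on day 3 were −0.81 (SE 0.43, adjusted p = 0.437) and −0.45 (SE 0.37, adjusted p = 0.662). Without knockout replicate 1 they were −1.24 and −0.72, and without control replicate 5 they were −0.20 and 0.08. Neither gene was called in any of the 14 fits that left out 1 mouse, so both estimates rest on single stomach-rich libraries.

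The change of the knockout effect from day 3 to day 7 was tested directly, as the difference of the effects in a fit of all 26 libraries. It was lower for 4 of the 10 genes, Olfm4, Myb, Lgr5 and Slc12a2, and higher for Tnfrsf19, where 9.74% of the 19604 genes tested were lower and 8.64% higher. The difference on the log2 scale was −6.58 for Olfm4 (SE 0.34, adjusted p = 2.73e-13), −3.70 for Myb (SE 0.20, adjusted p = 6.94e-13) and −1.70 for Lgr5 (SE 0.36, adjusted p = 0.000999). It was smaller for Slc12a2, at −0.68 (SE 0.20, adjusted p = 0.0140), and 0.92 for Tnfrsf19 (SE 0.28, adjusted p = 0.0191). Both of these calls were lost without the 10 libraries rich in pancreatic genes (adjusted p = 0.268 and 0.163), and with the epithelial list as library size the value for Slc12a2 was −0.34 (adjusted p = 0.555). Ascl2 had −0.69 (SE 0.27, adjusted p = 0.0698). With DESeq2 that change passed the test (adjusted p = 0.0412).

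The levels also moved between the days within a genotype. In control mice, 6 of 10 genes were lower on day 7 than on day 3 (Olfm4, Smoc2, Myb, Lrig1, Tnfrsf19 and Slc12a2) and the estimates of all 10 were negative, with 19.3% of all genes lower and 19.0% higher in this comparison. The call of Olfm4 was lost without control replicate 1, 2 or 5 of day 7 (adjusted p up to 0.0748) and, with that of Myb, without the pancreas-rich libraries (0.109 and 0.107). In knockout mice, 7 of 10 were lower on day 7 (Lgr5, Olfm4, Ascl2, Smoc2, Myb, Lrig1 and Slc12a2), with 20.2% of all genes lower and 20.1% higher. Tnfrsf19 differed by −1.07 (SE 0.20, adjusted p = 0.000223) between the days in control mice and by −0.14 (SE 0.19, adjusted p = 0.589) in knockout mice, where the epithelial list as library size gave −0.91 (adjusted p = 0.0178). The knockout mice of day 7 thus had a median of 13.1 CPM, near the 13.3 CPM of the control mice of day 3, and the higher value relative to control on day 7 stands beside a control level that was lower. In the control mice, 10 of 10 enterocyte markers and 9 of 12 epithelial markers were higher on day 7, and 8 of 8 smooth muscle and pacemaker markers and 9 of 10 fibroblast markers were lower. The summed smooth muscle list spanned 1680 to 3006 CPM on day 3 and 592 to 1094 CPM on day 7 in control mice, and its part in the differences between the days was not tested. The labels give no batch, and one that went with the day could not be separated from it: the 2 cannot be told apart.

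The order among the genes was compared within each mouse, as the log2 ratio of each member to Lgr5 (0.5 counts added), with two-sided exact permutation tests over mice adjusted over 18 ratios. On day 3, 0 of 9 ratios passed, and the ratio of Olfm4 to Lgr5 differed by −0.43 between the genotypes (exact permutation p = 0.0437, adjusted p = 0.0874). On day 7, 8 of 9 passed. All 9 ratios share Lgr5, itself 3.83-fold lower in the knockout, so the ratio of a gene that did not change would rise. Smoc2, with a log2 fold change of −0.02, had a ratio higher by 2.045. The share of all genes whose ratio would pass was not computed. Olfm4 fell beyond Lgr5 by 5.23 on the log2 scale (adjusted p = 0.00649), from a mean log2 ratio of 4.46 in control to −0.77 in knockout mice, and Myb fell beyond it by 2.05 (adjusted p = 0.00649). The exact p of both, 0.00216, is the smallest that 6 against 6 mice allow. Ascl2 kept nearest to Lgr5, with a difference of 0.69 (exact permutation p = 0.108, adjusted p = 0.195), while the ratios of the other 6 members to Lgr5 were higher in the knockout, by 1.18 for Slc12a2 up to 3.23 for Tnfrsf19. Relative to the summed epithelial list in place of Lgr5, Olfm4 and Ascl2 were lower in the knockout on day 3, with differences of −0.71 and −0.78 (adjusted p = 0.0481 for both, exact permutation over 20 values). The edgeR fit with the same list as library size called 0 members on day 3, with adjusted p of 0.635 for Olfm4 and 0.567 for Ascl2.

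The 18 further genes of crypt base signatures divided on day 7. None was called on day 3 (median log2 fold change −0.14), where the unadjusted p was under 0.05 for 5 of them, beside the 13.6% of all genes. On day 7, 8 were lower, 4 were higher and 6 did not pass the test (median −0.48). The Wnt target and feedback regulator Axin2 went from 25.5 ± 3.01 CPM in control to 8.26 ± 1.26 CPM in knockout mice (SD, n = 6), with a log2 fold change of −1.60 (SE 0.13, adjusted p = 1.26e-08). The R-spondin receptor Lgr4 fell by 1.30 on the log2 scale and the ubiquitin ligase Rnf43, which removes Wnt receptors, had a log2 fold change of −0.73, while its relative Znrf3 had −0.43 (adjusted p = 0.152). The water channel Aqp4 had the largest log2 fold change of the list, at −2.76 (SE 0.25). The sodium channel subunit Scn2b had −1.89, the urea transporter Slc14a1 −1.88, Cdca7 −1.72 and the BMP co-receptor Rgmb −0.74. In the other direction, the cell cycle kinase Cdk6 rose by 1.13 (SE 0.10, adjusted p = 7.33e-08), the cholesterol esterifying enzyme Soat1 by 0.87, the IGF binding protein Igfbp4 by 0.83 and the ephrin receptor Ephb2 by 0.31. Ephb3, Cd44, Esrrg, Nrn1 and Rnf32 had log2 fold changes between −0.54 and 0.40 that did not pass.

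**Figure D4:**
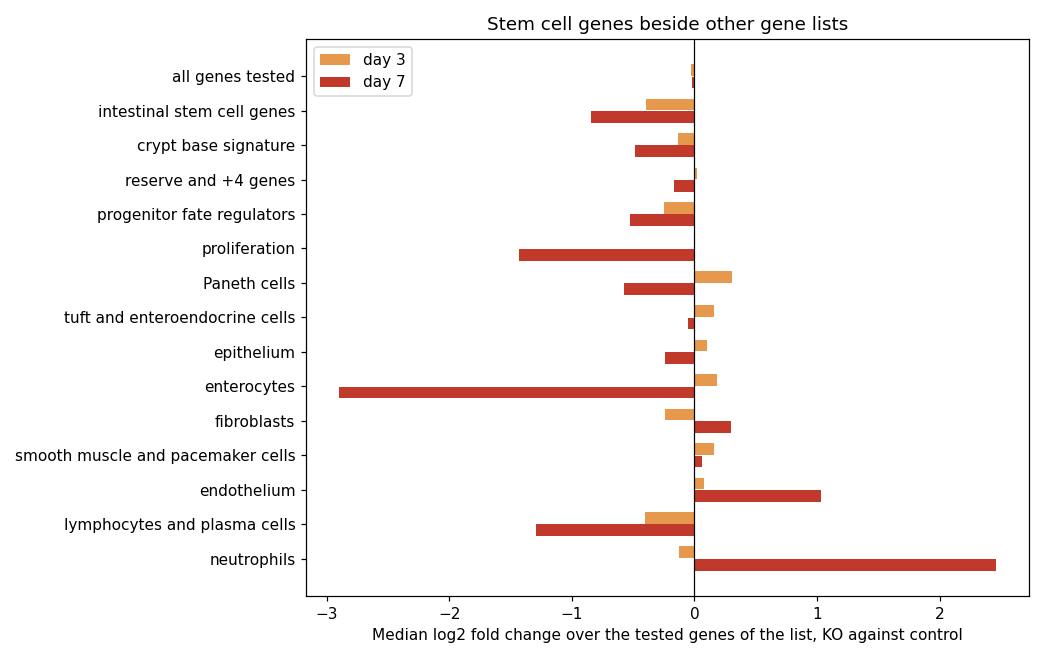
Median log2 fold change of knockout against control mice over the tested genes of each list, on day 3 (orange) and day 7 (red). The stem cell genes have medians of −0.39 and −0.85, beside −0.03 and −0.02 for all genes, and the proliferation list lies near 0 on day 3 and at −1.43 on day 7.

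Other lists of the crypt also held genes called on day 7. Of 20 proliferation genes, 0 were called on day 3, where 2 had an unadjusted p under 0.05, and 19 were lower on day 7 (median −1.43), with Rrm2 as the exception, which was looked up after its value was seen and was higher by 0.66. Mki67, the marker of cycling cells, went from 133 ± 13.7 to 39.2 ± 10.7 CPM on day 7, and Top2a, the topoisomerase of dividing cells, from 366 ± 34.8 to 110.2 ± 17.5 CPM (SD, n = 6). The genes for Notch signalling and fate choice were lower for 5 of 7 tested on day 7, among them Gfi1 with −1.09 and Hes1, a Notch target, with −0.38. On day 3, 0 of 8 tested were called (median −0.25, Hes1 −0.54), and the change of the effect was called for 0 of 7. Neurog3, named after its value was seen, did not pass the filter on day 7. It was at 3.41 ± 1.03 CPM in control and 0.015 ± 0.037 CPM in knockout mice of that day (SD, n = 6). Of the 5 genes of reserve or +4 position cells, Hopx rose from 33.2 ± 10.7 to 132 ± 27.5 CPM, Bmi1 (named after its value was seen) was higher by 0.88 on the log2 scale, and the telomerase subunit Tert had −1.48 (adjusted p = 0.000611), while Clu had −0.72 (adjusted p = 0.560). Of the markers of Paneth cells, the neighbours of the stem cells, 2 of 7 tested genes were lower (Defa17 with −0.67 and Defa26 with −1.28), and Lyz1 was at 997 ± 492 CPM in control and 740 ± 217 CPM in knockout mice. The defensin genes are near-identical copies between which the counting could split reads, so their values are uncertain. Enterocyte markers were lower for 9 of 10 genes on day 7 (median −2.90), and the epithelial list was mixed, with 6 lower and 2 higher of 12. Of 9 tested tuft and enteroendocrine genes, Avil rose from 6.92 ± 4.07 to 42.5 ± 10.1 CPM, while Trpm5 fell from 9.49 ± 2.41 to 4.08 ± 0.68 CPM (SD, n = 6) and Chga, named after its value was seen, had −0.54, and the median was −0.06. Among the other tissues, 1 of 8 smooth muscle and pacemaker genes was lower (Kit, −0.61), 3 of 4 tested neutrophil genes were higher from low levels, with S100a9 at 2.45 ± 1.47 CPM in the knockout, 0 of 6 tested pancreatic genes were called, and of 2 tested stomach genes Pgc was lower (−5.84), which is at 118 ± 283 CPM in control mice through 1 library.

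The genes whose levels varied most like Lgr5 and Olfm4 were sought among the 9628 genes whose mean reached 50 counts, as Pearson's r of log2 CPM after subtraction of the group means over 26 libraries. For Olfm4 they were Otc (r = 0.72), Haus4 (0.70), Clca3b (0.67), Mcm4 (0.67) and Ndufaf1 (0.67), and on day 7 Otc and Clca3b had log2 fold changes of −6.40 and −7.02, close to that of Olfm4, while Ndufaf1 was higher by 0.38. For Lgr5 they were Mrps26 (r = 0.76), Fbxo45 (0.71), Mcm3 (0.70), Akr7a5 (0.70) and Mrpl42 (0.69), of which Mcm3 and Akr7a5 were lower and Mrps26 higher on day 7. Among the members, Lgr5 and Olfm4 correlated with r = 0.65, Lgr5 and Myb with 0.62, and Prom1 and Sox9 with 0.94. These are descriptions over libraries that share depth and tissue composition.

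The genes lie apart in the genome (GRCm38, annotation GENCODE M21), with Lgr5 at chr10:115450311-115587780, Olfm4 at chr14:79984081-80023139, Myb at chr10:21124935-21160984, Ascl2 at chr7:142966829-142969264 and Tnfrsf19 at chr14:60963875-61046490. Exons of another annotated gene overlap those of Olfm4 (Gm6999, same strand), Prom1 (Gm16401), Myb (Gm26577) and Lrig1 (Slc25a26, opposite strand like the 2 before it). Their reads could be shared between the genes in the counting, so the levels of these 4 members are less certain. Smoc2, with no such overlap in this annotation, also had divided counts, such as 760.5 in knockout replicate 7 of day 3.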

How the data were processed

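3′ mRNA-seq (QuantSeq) libraries of proximal SI from 26 mice were grouped by the genotype and day of the labels. The authors trimmed reads with cutadapt 2.10, aligned them to GRCm38 with spike-in sequences using Subread, and counted them on exons with featureCounts 2.0.1 (Ensembl annotation). Reads on several genes were divided, and no strand option is stated. Deposited were the resulting estimated counts per gene, not normalized. A second deposited table of CPM was not used. Of the values 95.0% were whole, and all were rounded before fitting. The 92 spike-in entries had 0 counts.

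In R 4.3.3, genes at 0 counts in most libraries of either group were left out, and edgeR 4.0.16 was used for a quasi-likelihood fit of each day (TMM, Benjamini-Hochberg adjusted p under 0.05). The change of the effect and the comparisons of days came from 1 fit of all libraries. Standard errors were obtained from the log2 fold change over the root of F. CPM used library totals without TMM. Litter and batch were not used, so p-values measure the spread between these mice. Alternatives were DESeq2 1.42.0, other normalizations and filters, all libraries in 1 fit, a replicate block and each mouse left out. Fits without libraries rich in stomach or pancreas genes, or with these lists as covariates, were added after seeing the data. The pipeline was tested on simulated data, and 0 pairs of libraries were identical. Of simulated 2-fold changes, the pipeline recovered 62.4% on day 3, 83.1% on day 7 and 42.5% for the change of the effect. For 4-fold changes these shares were 93.5%, 95.5% and 92.6%. Gene names in the text were drawn from the 10 members, the crypt base list and the genes most like Lgr5 and Olfm4. Of each other list, they were drawn from the 2 of highest mean CPM and up to 2 called on day 7 with the largest change. Not every gene of this rule is named, and list genes named outside it are marked as named after their value was seen. The members and lists were chosen with earlier results of these data known. The targeted gene is not reported here.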

Additional observations from a re-analysis of the deposited data

Results flagged for a closer look

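Of 40 sets of a gene and a group, 10 held a mouse far from the others of its group by Dixon's test at the 95% level, where chance gives about 1 in 20 sets. Prom1 and Sox9 account for 6 of them, each in a library with over 100 CPM of stomach genes. In control replicate 5 of day 3, Prom1 was at 437 CPM and Sox9 at 685 CPM, and Slc12a2 stood out there too, at 771 CPM. In knockout replicate 1 of day 3, Prom1 was at 215 CPM and Sox9 at 377 CPM. In control replicate 2 of day 7, Prom1 was at 181 CPM and Sox9 at 244 CPM. The part of stomach tissue in these levels was not tested beyond the fits without these libraries.

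The other mice far from their groups had no such stomach signal. In knockout replicate 6 of day 3, Lgr5 reached 20.1 CPM, against 13.8 CPM in the mouse nearest to it. On day 7, Smoc2 was high in knockout replicate 3, at 93.7 CPM, and Slc12a2 was low in control replicate 3, at 177 CPM.

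The effect of the knockout differed between day 3 and day 7 by a test of the difference itself for 5 genes, with log2 differences of −6.58 for Olfm4, −3.70 for Myb, −1.70 for Lgr5, −0.68 for Slc12a2 and 0.92 for Tnfrsf19.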

How the results depend on the processing

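The members' values on single comparisons were recomputed in 1280 combinations, which include the fits that left out 1 mouse. Of these, 1176 kept their direction and side of the threshold, 25 lost the call, 32 gained one and 47 turned direction. Some of the 47 also gained a call and are not among the 32, such as Sox9 on day 7 without stomach-rich libraries (edgeR adjusted p = 0.0444). The number of genes called on day 3, 297, was 769 with DESeq2, 92 with the epithelial list as library size, 808 with all libraries in 1 fit, 99 with the replicate block, 486 without libraries rich in stomach genes and 152 without those rich in pancreatic genes, and ranged from 171 (without knockout replicate 4) to 779 (without knockout replicate 1) when single mice were left out. Members lower on day 3 numbered 1 with DESeq2, library totals, filterByExpr and without stomach-rich libraries (Ascl2 in each), 2 with all libraries in 1 fit, and 0 to 1 with single mice left out. Ascl2 was called without knockout replicate 1, knockout replicate 6 or control replicate 7. Members higher on day 7 numbered 2 with the epithelial list, without stomach-rich libraries and with the covariates, and 1 to 2 with single mice left out, where control replicate 2 gave the second. Without pancreas-rich libraries, the change of the effect was called for 1917 genes and for 0 higher members, and the control days differed for 4448 genes. With the epithelial list, the control days differed for 15421 of the 19604 genes tested, with 10 members lower. The summed list was itself higher in control mice on day 7 (5022 to 6303 CPM) than on day 3 (2358 to 3978 CPM). This scaling therefore shifts the estimates of all genes downward between the control days, those of the 10 members included. On day 3, 0 ratios to Lgr5 passed, and 0 to 1 with single mice left out, while 2 ratios to the epithelial list passed.

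Directions turned for Sox9, Smoc2, Lrig1, Prom1 and Tnfrsf19. Sox9 on day 7 was 0.37 with the epithelial list, 0.0119 in 1 fit, 0.10 with the replicate block, 0.32 without stomach-rich libraries and 0.34 with the covariates, and on day 3 it was 0.19 with the covariates. Smoc2 on day 7 was 0.32 with the epithelial list and 0.0322 without pancreas-rich libraries, where it was 0.0540 on day 3. The change of the effect of Lrig1 was 0.0386 with library totals, 0.37 with the epithelial list and 0.12 without pancreas-rich libraries, and that of Prom1 was −0.00949 with the block and −0.0322 with the covariates. With single mice left out, the change of the effect ranged from −0.10 to 0.0489 for Lrig1, −0.59 to 0.48 for Prom1, −0.0794 to 0.78 for Sox9 and −0.0773 to 0.0872 for Smoc2, day 3 values from −0.72 to 0.0844 for Sox9 and −0.10 to 0.0161 for Smoc2, day 7 values from −0.11 to 0.32 for Sox9 and −0.13 to 0.0296 for Smoc2, and the knockout days of Tnfrsf19 from −0.19 to 0.0402. The cause was not tested.

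Mice with the same replicate number correlated over 0.1 in 3 of 7 pairs on day 3 and 2 of 6 on day 7. The correlations ranged from −0.41 to 0.57 on day 3 and from −0.41 to 0.60 on day 7. The same-numbered control was the best match of 2 knockout mice on each day. Such correlations can neither show nor exclude that the numbers pair the mice. With the replicate block, 99 genes and 0 members were called on day 3, and 7559 genes on day 7, with 6 members lower and 1 higher. Depth limits Lgr5, Olfm4 and Myb in knockout mice of day 7, at 3 to 26 counts.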
